A study of Mus musculus with 18 samples.

Results

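Keratins are the proteins of the intermediate filaments that give epithelial cells their mechanical strength. Each filament is built from an acidic type I chain paired with a basic type II chain, and an epithelium is known by the pairs it makes. Krt5 with Krt14 marks the dividing basal layer of the epidermis, Krt1 with Krt10 the cells that have left it, Krt8 with Krt18 and often Krt19 or Krt20 the single-layered epithelia of gut and lung, and a further set hardens the hair shaft. Neutrophils are not epithelial cells, and the usual intermediate filament protein of leukocytes is vimentin. The keratin family was described here in libraries of sorted neutrophils. Its members were all protein-coding genes whose mouse symbol is Krt followed by a number, low ones included, which gave 53 of the 32328 genes of the deposited table. Within them 5 epidermal keratins (Krt1, Krt5, Krt10, Krt14 and Krt15) were set against 4 simple epithelial ones (Krt8, Krt18, Krt19 and Krt20).

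The study profiled neutrophils from 6 tissues of C57BL/6 mice, 8 to 12 weeks old, to compare their transcriptomes. No treatment or mutant allele is named, and cells of every tissue were sorted in the same way with antibodies to CD45, CD11b and Ly6G and the dead-cell dye DAPI, at a stated purity of typically over 95%. There were 3 libraries each from Skin (ear), Intestine (colon), Lung, Spleen, bone marrow (BM) and Blood, 18 in all. Whether each replicate is its own mouse or a pool is not stated, so p-values reflect only how these libraries vary, and that variation may be technical.

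The deposited values are estimated read counts over an effective library size, with no division by the length of the gene. Levels are given below as scaled counts, which are these values minus the library's floor (the value a count of 0 receives), so that 0 means no count. Estimated counts totalled 2935582 (Lung replicate 1) to 12087938 (Spleen replicate 2) per library, and 1 count was worth 0.0727 to 0.433 scaled counts. The 16157 genes that reached a deposited value of 1 in 3 or more libraries were tested with limma on log2(value + 1), and a gene was called at a Benjamini-Hochberg adjusted p under 0.05 over all of them. Each tissue was set against Blood, so these comparisons share the Blood libraries. Skin was also set against Intestine and against the mean of the other 5 tissues. Differences are on the log2(value + 1) scale, which understates changes of low genes.

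Some libraries stood apart from their labels. The summed scaled counts of 10 neutrophil genes, S100a9, Csf3r and Ly6g among them, were 1287 in Skin replicate 1, against 20641 and 10426 in the other Skin libraries, and 835 to 1059 in Intestine. They were 5553 to 17930 in Lung, 10951 to 15206 in Spleen, 33678 to 45061 in BM and 29453 to 31616 in Blood. The order of Skin replicates 2 and 3 depends on the scaling. Their estimated counts totalled 5680026 and 5962931. Yet 1 count was worth 0.433 scaled counts in replicate 2 and 0.186 in replicate 3. The higher sum of replicate 2 is therefore no evidence of more neutrophil RNA there than in replicate 3. All 10 neutrophil genes fell in Intestine against Blood, beside 10.1% of all genes called lower, and 8 of 10 fell in Skin, beside 10.4%. Ly6g, the gene of the sorting antigen, was at 0.147, 0 and 26.8 scaled counts in Skin and 3.09, 0.369 and 0.307 in Intestine, against 102, 237 and 69.3 in Blood. The 3 Skin libraries also differed from each other more than other replicates did, with a residual spread of 1.31 to 1.66 log2 units, against 0.535 to 0.976 in the other 15. In such bulk libraries fewer cells of a type cannot be told apart from less RNA per cell.

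The family lay in the 2 clusters known for it. In GRCm38 (mm10) coordinates of GENCODE vM21, 27 members lay at chr11:99232761-100269871, the type I cluster from Krt222 to Krt42, and 26 at chr15:101347444-102032027, the type II cluster from Krt80 to Krt18, a type I gene at its end. More members were seen in Skin than elsewhere. In Skin 42 of the 53 were above the floor in at least 1 library, in Intestine 18, in Lung 22, in Spleen 22, in BM 13 and in Blood 16. No value is given for Krt85, which was not analysed here. Members above the floor in all 3 libraries of a tissue numbered 11 in Skin, 6 in Intestine, 13 in Lung, 13 in Spleen, 8 in BM and 7 in Blood. Krt7, Krt26 and Krt80 were above it in all 18 libraries, 15 members in a single library, and Krt12, Krt28, Krt40, Krt73 and Krt90 in none.

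The keratins' share of all scaled counts was 0.927%, 0.216% and 0.157% in Skin replicates 1, 2 and 3 and at most 0.0584% in any other library (Lung replicate 3). Only 19 of the 53 members reached the tests. Many of these did so through the tissue where they are high, so counts and medians over the 19 describe them and are not evidence about the family. The moderated F test of any difference between the 6 tissues called 12 of the 19, beside 31.9% of all genes tested. The map of all members by library shows how the groups of the family fell on different tissues and, within Skin, on different libraries.

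**Figure D1:**
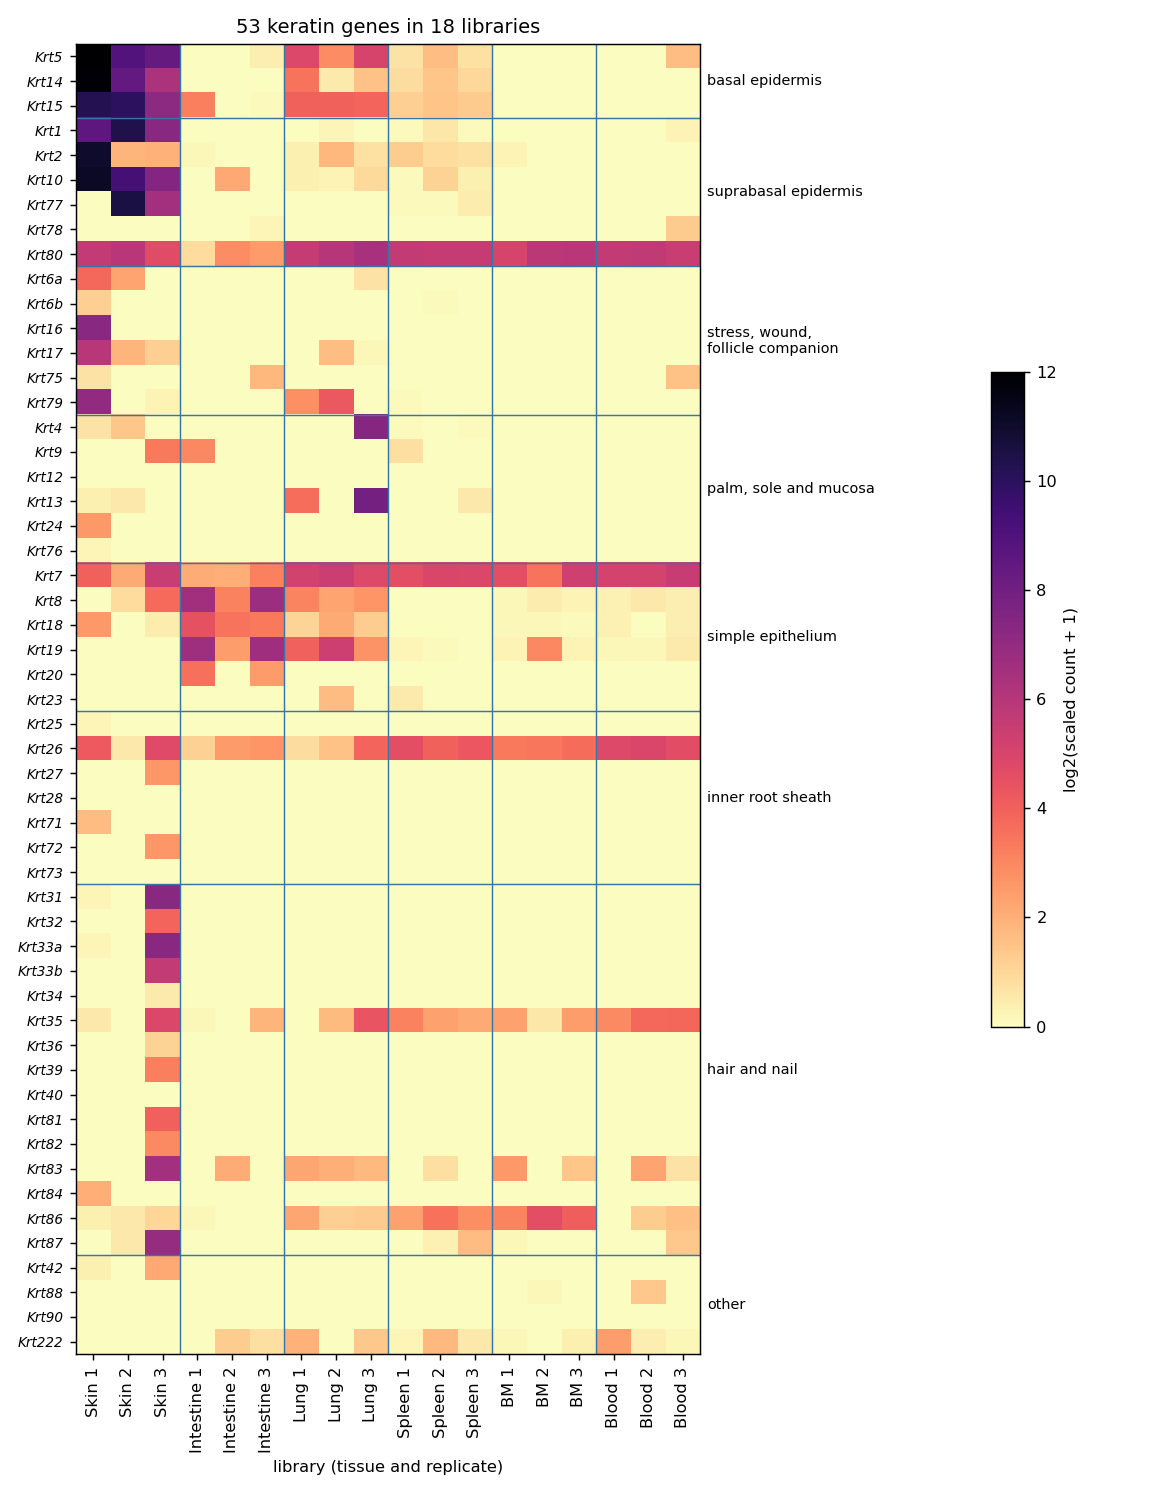
Heat map of log2(scaled count + 1) for the 53 keratin genes (rows, grouped by the epithelium they are known for) in the 18 libraries (columns, 3 per tissue, Skin at the left and Blood at the right). Epidermal keratins are darkest in Skin, Krt8 and Krt19 in Intestine, most hair keratins have counts in Skin replicate 3, and the rows of Krt80, Krt7 and Krt26 are filled in all 18 libraries.

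The 250 bases before the RefSeq start are shown for 5 members that stand for the patterns described below. They are Krt14 and Krt10, high in Skin, Krt20, counted in Intestine libraries alone, and Krt26 and Krt7, counted in every library. The sequences are from RefSeq on GRCm38.p6, read 5′ to 3′ along the gene, at chr11:100206031-100206280 (minus strand), chr11:99389365-99389614 (minus strand), chr11:99438154-99438403 (minus strand), chr11:99337966-99338215 (minus strand) and chr15:101412153-101412402 (plus strand) in that order. Capitals mark TATAAA, the core of the TATA box, and GGGCGG, the core of the GC box, each searched on both strands (CCGCCC is GGGCGG on the other strand); the 2 motifs do not overlap here.
Krt14: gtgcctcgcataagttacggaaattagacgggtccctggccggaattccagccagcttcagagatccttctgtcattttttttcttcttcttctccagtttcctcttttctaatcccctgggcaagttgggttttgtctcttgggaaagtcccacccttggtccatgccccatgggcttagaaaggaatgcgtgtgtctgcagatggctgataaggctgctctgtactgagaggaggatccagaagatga
Krt10: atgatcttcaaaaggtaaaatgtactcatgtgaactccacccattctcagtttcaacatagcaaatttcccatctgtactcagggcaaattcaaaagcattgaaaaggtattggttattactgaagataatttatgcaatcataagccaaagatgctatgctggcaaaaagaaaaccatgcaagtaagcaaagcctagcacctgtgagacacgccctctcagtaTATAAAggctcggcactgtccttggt
Krt20: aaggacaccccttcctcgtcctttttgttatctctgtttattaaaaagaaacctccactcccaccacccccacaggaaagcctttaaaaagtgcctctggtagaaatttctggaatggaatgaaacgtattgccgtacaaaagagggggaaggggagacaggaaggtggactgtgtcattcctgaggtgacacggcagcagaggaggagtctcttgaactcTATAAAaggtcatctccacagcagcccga
Krt26: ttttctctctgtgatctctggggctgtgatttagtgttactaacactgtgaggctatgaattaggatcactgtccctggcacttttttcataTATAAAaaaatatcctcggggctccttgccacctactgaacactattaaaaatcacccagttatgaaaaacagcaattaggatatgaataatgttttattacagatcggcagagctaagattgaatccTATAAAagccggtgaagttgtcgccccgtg
Krt7: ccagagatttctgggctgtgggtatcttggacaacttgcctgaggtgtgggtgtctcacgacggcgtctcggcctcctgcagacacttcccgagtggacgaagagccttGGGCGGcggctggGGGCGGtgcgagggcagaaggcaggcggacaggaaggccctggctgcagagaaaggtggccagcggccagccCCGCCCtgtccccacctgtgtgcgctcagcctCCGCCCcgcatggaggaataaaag
TATAAA began 26 bases before the start of Krt10, 29 before that of Krt20, and 30 and 158 before that of Krt26. Krt7 held 4 matches of GGGCGG and Krt14 held neither motif. The windows of Krt14 and Krt7 lie inside the GENCODE spans of these genes (chr11:100203162-100207548 and chr15:101411043-101430313). Both windows precede the RefSeq start, and the bases before the outermost GENCODE start were not searched. RefSeq windows were given for 36 members. TATAAA was in those of 17 members, beside 12.37% of all 32851 windows of the same length, and GGGCGG in those of 2, Krt7 and Krt75, beside 32.74%. CpG pairs numbered 16 before Krt7 and 12 before Krt18, with a median of 4 over the keratin windows and 6 over all windows. These letters describe the windows and do not show that a factor binds them.

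The keratins of basal keratinocytes were high in all 3 Skin libraries and low or at 0 elsewhere. Krt5 (ENSMUSG00000061527, chr15:101707070-101712898), the type II partner of Krt14, had 4048, 469.8 and 327 scaled counts in Skin, against 0, 0 and 2.08 in Blood. Krt14 (ENSMUSG00000045545, chr11:100203162-100207548) had 3818, 342 and 78.1 in Skin and 0 in all 3 Blood libraries. Krt15 (ENSMUSG00000054146), a basal keratin also used as a marker of hair follicle stem cells, had 1192, 1038 and 144 in Skin and 0 in all 3 Blood libraries. For each of the 3 genes every Skin library lay above every library of the other 5 tissues. Skin replicate 3 was the lowest of the Skin libraries in scaled counts. For Krt5 the order of replicates 2 and 3 depends on the scaling.

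The keratins of the suprabasal epidermis were also high in Skin, in another order of libraries. Krt1 (ENSMUSG00000046834) had 384, 1273 and 154 scaled counts in Skin, against 0, 0 and 0.208 in Blood. Its partner Krt10 (ENSMUSG00000019761) had 2219, 637 and 171 in Skin and 0 in all 3 Blood libraries. Krt1 was highest in Skin replicate 2 and Krt10 in replicate 1, and neither overlapped any other tissue.

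All 5 epidermal keratins rose in Skin against Blood. The log2 differences were 9.21 ± 0.87 (SE, adjusted p = 1.57e-06) for Krt10, 9.14 ± 0.93 (2.88e-06) for Krt5, 9.06 ± 0.92 (2.88e-06) for Krt15, 8.80 ± 1.04 (1.5e-05) for Krt14 and 8.56 ± 0.72 (4.23e-07) for Krt1, each over 3 Skin and 3 Blood libraries. Set against a floor of 3 counts per library, the Skin mean was at least 4247-fold higher than Blood for Krt14, at least 3033-fold for Krt10 and at least 2380-fold for Krt15. In the lowest Skin library alone the bound was 235-fold for Krt14, 514-fold for Krt10 and 433-fold for Krt15. The SE and p-values use a spread shared over all 18 libraries, and the Skin libraries varied more than the others. All 5 kept the call in each alternative tried, with a limma adjusted p of up to 0.0285 for Krt14 and up to 0.0094 for each of the others. Their sizes rested on single Skin libraries: without replicate 1 the differences were 8.02 for Krt5, 7.29 for Krt14 and 8.29 for Krt10, and without replicate 3 they were 9.83 for Krt5, 10.08 for Krt14, 10.14 for Krt10 and 10.04 for Krt15.

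**Figure D2:**
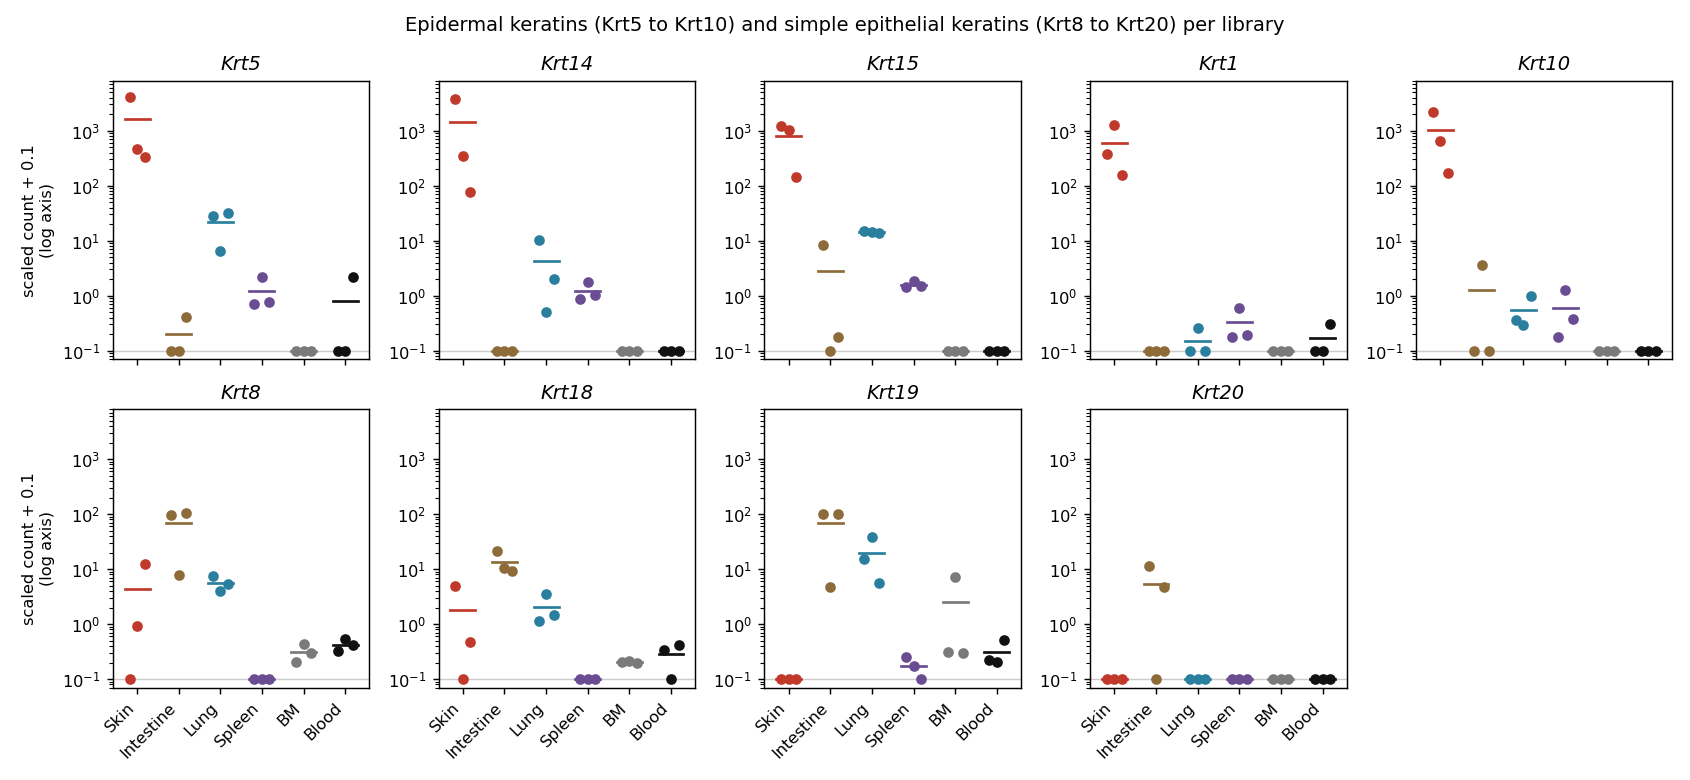
Scaled counts plus 0.1 on a log axis for the 5 epidermal (top) and 4 simple epithelial keratins (bottom) in each library (points) with the tissue mean (bar), n = 3 libraries per tissue. The 3 Skin libraries lie above all others for each epidermal keratin (lowest 78.1 scaled counts, Krt14), whereas Krt20 has counts in 2 Intestine libraries and nowhere else.

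Krt2 and Krt77, type II keratins of late epidermal differentiation, were found mainly in different Skin libraries. Krt2 had 2028, 2.6 and 2.79 scaled counts in Skin and 0 in all 3 Blood libraries. Krt77 had 0, 1475 and 92.4 in Skin and 0 in all 3 Blood libraries. Replicate 1 thus held nearly all of Krt2 and none of Krt77. Krt2 was called higher in Skin, by 4.88 ± 1.43 (limma adjusted p = 0.0238), but the difference was 1.87 without Skin replicate 1, 6.39 without replicate 2 and 6.38 without replicate 3. The call was lost without any 1 of the Blood libraries. It was also lost with log2(value + 5), with no filter and when the fit held only Skin and Blood (limma adjusted p of up to 0.213 over the alternatives). Krt77 had a value of at least 1 in too few libraries to be tested.

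The stress and wound keratins were counted mainly in Skin replicate 1. Krt17, induced in injured epidermis and made in hair follicles, had 59.6, 2.61 and 1.3 scaled counts in Skin and 0 in all 3 Blood libraries, and it was called higher by 2.96 ± 0.80 (adjusted p = 0.0151). Without Skin replicate 1 this difference was 1.52, and without replicate 3 it was 3.85. The call was lost when libraries were weighted and when the fit held only Skin and Blood (adjusted p of up to 0.152). Krt16, another wound keratin, had 153, 0 and 0 in Skin and 0 in every other library. Krt79, made in the upper hair follicle and its glands, had 128, 0 and 0.186 in Skin, 6.01, 17.8 and 0 in Lung and 0 in all 3 Blood libraries, and did not pass against Blood in either (adjusted p = 0.173 for Skin and 0.318 for Lung). Krt6a, the usual type II partner of Krt16, had 12.8, 3.79 and 0 in Skin. Skin replicate 1 held the highest value of each of these genes, and of the 6 members of the stress and wound list Krt17 alone was above the floor in all 3 Skin libraries.

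The hair keratins, cysteine-rich proteins of the hair shaft and nail, were counted mainly in Skin replicate 3. Their list of 15 members summed to 4.14, 0.866 and 643 scaled counts in Skin replicates 1, 2 and 3, against 6.57 to 17.6 in Blood. Krt31 and Krt33a, type I hair keratins, each had 0.147, 0 and 155 in Skin and 0 in all other libraries. Krt33b had 48.2 in replicate 3 and 0 elsewhere, and Krt81, Krt32, Krt39 and Krt82 had 14.98, 13.6, 8.37 and 6.51 there and 0 elsewhere. Of the type II members, Krt87 had 0, 0.433 and 118 in Skin, against 0, 0 and 1.61 in Blood, and Krt83 had 0, 0 and 91.5 in Skin, against 0, 3.77 and 0.625 in Blood. Of the 15 members 4 could be tested (Krt35, Krt83, Krt86 and Krt87), and 0 passed in Skin against Blood (limma adjusted p = 0.21 for Krt87 and 0.516 for Krt83). Of all genes tested 5.64% were called higher and 10.4% lower.

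In all, 7 of the 19 tested members rose in Skin against Blood (Krt1, Krt2, Krt5, Krt10, Krt14, Krt15 and Krt17) and 0 fell, beside 5.64% of all genes called higher and 10.4% called lower. At an unadjusted p under 0.05 the counts were 7 and 0. The same 7 were higher in every Skin library than in every Blood library, beside 7.72% of all genes, and Krt19 and Krt222 were lower in every one, beside 18.6%. Both of these were at 0 in Skin, where 1 count was worth 0.147 to 0.433 scaled counts. Their lowest Blood values, 0.109 and 0.112, were smaller than that, so this order is uncertain. The median log2 difference was 1.27 over the 19 members, also with genes at 0 on one side set at their fold bound, and -0.26 over all genes tested. This median describes the 19 only, since some of them reached the tests mainly through Skin. Against the mean of the other 5 tissues the same 7 genes were called higher and 0 lower, beside 5.9% and 12.9% of all genes, with counts of 9 and 1 at an unadjusted p under 0.05. All of these but Krt17 lay above every library of the other tissues (6 members, beside 1.76% of all genes), and 0 members lay below every one, beside 2.16%. Those differences were 8.87 for Krt10, 8.57 for Krt1, 8.50 for Krt5, 8.24 for Krt14 and 7.83 for Krt15, and without Skin replicate 1 they were 7.96 for Krt10, 7.38 for Krt5 and 6.73 for Krt14. Without Skin replicate 3 they were 9.80 for Krt10, 9.20 for Krt5, 9.53 for Krt14 and 8.81 for Krt15. Krt2 and Krt17 differed by 4.49 and 2.85, by 1.47 and 1.41 without Skin replicate 1 and by 5.99 and 3.74 without replicate 3, and Krt2 by 6.00 without replicate 2. With a weight per library both lost the call, which left 5 genes.

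Keratinocyte markers rose in Skin together with these keratins. A list of 18 keratinocyte genes summed to 3965, 3424 and 333 scaled counts in Skin and to at most 89.0 in any library of the other tissues. Of its 16 tested genes 12 rose in Skin against Blood, beside 5.64% of all genes called higher. Of the list 0 genes were at 0 in Skin replicate 1 and 3 in replicate 3, whereas in replicate 2 there were 8, namely Lor, Flg, Krtdap, Lgals7, Ivl, Dsg3, Calml3 and Serpinb5. Its members with the highest means in Skin were Dsg1a, a desmosomal cadherin, with 480.0, 1331 and 67.2 in Skin and 0 in all 3 Blood libraries, and Col17a1, a collagen of the hemidesmosome, with 664, 444 and 41.7 in Skin, against 0.478, 11.4 and 1.15 in Blood. Fibroblast genes, 6 in the list, summed to 4172, 2149 and 1084 in Skin, against 29.3 to 57.1 in Blood. A list of 7 hair follicle genes summed to 29.4, 0 and 154 in Skin, against 12.0 to 21.1 in Blood. Of the 5 tested 0 passed, beside 5.64% of all genes called higher and 10.4% called lower. The highest means were those of Tchh with 4.12, 0 and 41.7 and S100a3 with 0.148, 0 and 36.7 in Skin. The part of other cells in these keratin differences was not tested.

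Intestine showed the simple epithelial keratins in place of the epidermal ones. Krt8 (ENSMUSG00000049382), the type II keratin of simple epithelia, had 95.6, 7.64 and 105 scaled counts in Intestine, against 0.223, 0.435 and 0.312 in Blood. Krt18 (ENSMUSG00000023043), its type I partner, had 21.2, 10.4 and 9.14 in Intestine, against 0.239, 0 and 0.312 in Blood. Krt19 (ENSMUSG00000020911), a small type I keratin of ducts and gut, had 101, 4.56 and 99.4 in Intestine, against 0.12, 0.109 and 0.417 in Blood. All Intestine libraries lay above all Blood libraries for the 3 genes, and Intestine replicate 2 was by far the lowest for Krt8 and Krt19.

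Krt8 rose by 5.02 ± 0.95 (adjusted p = 0.000495), Krt19 by 4.93 ± 1.02 (0.00111) and Krt18 by 3.48 ± 0.66 (0.000487) on the log2 scale in Intestine against Blood. Without Intestine replicate 2 the differences of Krt8 and Krt19 were 6.20 and 6.32, without replicate 3 they were 4.39 and 4.24, and that of Krt19 was 4.23 without replicate 1. Krt20 (ENSMUSG00000035775), a type I keratin of the gut lining, had 11.2, 0 and 4.68 in Intestine and 0 in the other 15 libraries, too few to be tested. The epidermal keratins did not rise there: Krt14 and Krt1 were at 0 in all 3 Intestine libraries, Krt5 at 0, 0 and 0.307, Krt10 at 0, 3.49 and 0 and Krt15 at 8.19, 0 and 0.0768.

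A further set of 3 members fell in Intestine against Blood. Krt80 (ENSMUSG00000037185, chr15:101347444-101370162), a type II keratin known from many epithelia where it appears as cells differentiate, had 0.851, 6.31 and 4.61 scaled counts in Intestine, against 46.9, 50.4 and 43.2 in Blood. Krt7 (ENSMUSG00000023039, chr15:101411043-101430313), a type II keratin of ducts and simple epithelia and the neighbour of Krt80 at the start of the cluster, had 3.2, 3.09 and 8.03 in Intestine, against 32.5, 33.4 and 45.1 in Blood. Krt26 (ENSMUSG00000075570), a type I keratin of the inner root sheath of the hair, had 1.24, 4.75 and 5.29 in Intestine, against 27.03, 30.1 and 23.5 in Blood. No Intestine library reached the lowest Blood library for any of the 3.

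The log2 differences were -3.48 ± 0.61 (SE, adjusted p = 0.000236) for Krt80, -2.80 ± 0.75 (0.0085) for Krt7 and -2.66 ± 0.96 (0.0444) for Krt26 in Intestine against Blood. Mean levels were 11.9-fold lower in Intestine for Krt80 and 7.75-fold lower for Krt7. The difference of Krt80 was -2.89 without Intestine replicate 1. The call of Krt26 was lost in 15 of 28 alternatives, with an adjusted p of up to 0.153. It was lost without any 1 of 12 libraries, namely all Intestine, Spleen and Blood libraries, Lung replicate 2 and BM replicates 1 and 3. Krt35, a hair keratin counted in Blood as well, had 0.115, 0 and 2.64 in Intestine, against 6.57, 12.5 and 13.1 in Blood, and missed the threshold (-2.79 ± 1.15, adjusted p = 0.0786).

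Of the 19 tested members, 3 thus rose and 3 fell in Intestine against Blood, beside 15.8% of all genes called higher and 10.1% called lower, and the share that rose is close to that background. The members higher in every Intestine library than in every Blood library were the same 3, beside 26.1% of all genes, and 4 were lower in every one (Krt80, Krt7, Krt26 and Krt35), beside 22.7%. The median log2 difference was -0.10 over the members, also with genes at 0 on one side at their bound, and 0.12 over all genes tested. A list of 20 colon epithelium genes summed to 658, 404 and 659 scaled counts in Intestine, against 58.9 to 83.4 in Blood, and 13 of its 17 tested genes rose and 1 fell. Its members with the highest means there were Muc2, the main mucin of goblet cells, with 123, 141 and 102 in Intestine, against 0.179, 0.49 and 3.33 in Blood, and Fcgbp, a mucus protein, with 16.3, 143 and 163 in Intestine, against 0.359, 0.225 and 0.734 in Blood. Intestine replicate 2, the library lowest in Krt8 and Krt19, held 7 of the 20 genes at 0, against 3 in replicate 1 and 1 in replicate 3. The sum of this list was not particular to Intestine: it was 1186.5, 609.4 and 67.3 in Skin. There 2 of its 17 tested genes rose against Blood, beside 5.64% of all genes, and Muc2 was at 0 in all 3 libraries. The 10 neutrophil markers fell in Intestine, where Krt80, Krt7 and Krt26 fell too. In Skin replicates 1, 2 and 3 these markers summed to 1287, 20641 and 10426 scaled counts, and the order of replicates 2 and 3 depends on the scaling. In these Skin libraries Krt80 had 47.5, 58.0 and 24.9, Krt7 had 14.6, 3.4 and 42.99, and Krt26 had 17.2, 0.438 and 26.3. Fibroblast genes summed to 5230, 10046 and 9908 scaled counts in Intestine, against 29.3 to 57.1 in Blood, and 6 of 6 rose, and endothelium genes, 6 in the list, summed to 483, 1219 and 696 in Intestine, against 28.6 to 49.6 in Blood, and 5 of 6 rose. The part of any of these in the keratin differences was not tested.

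**Figure D3:**
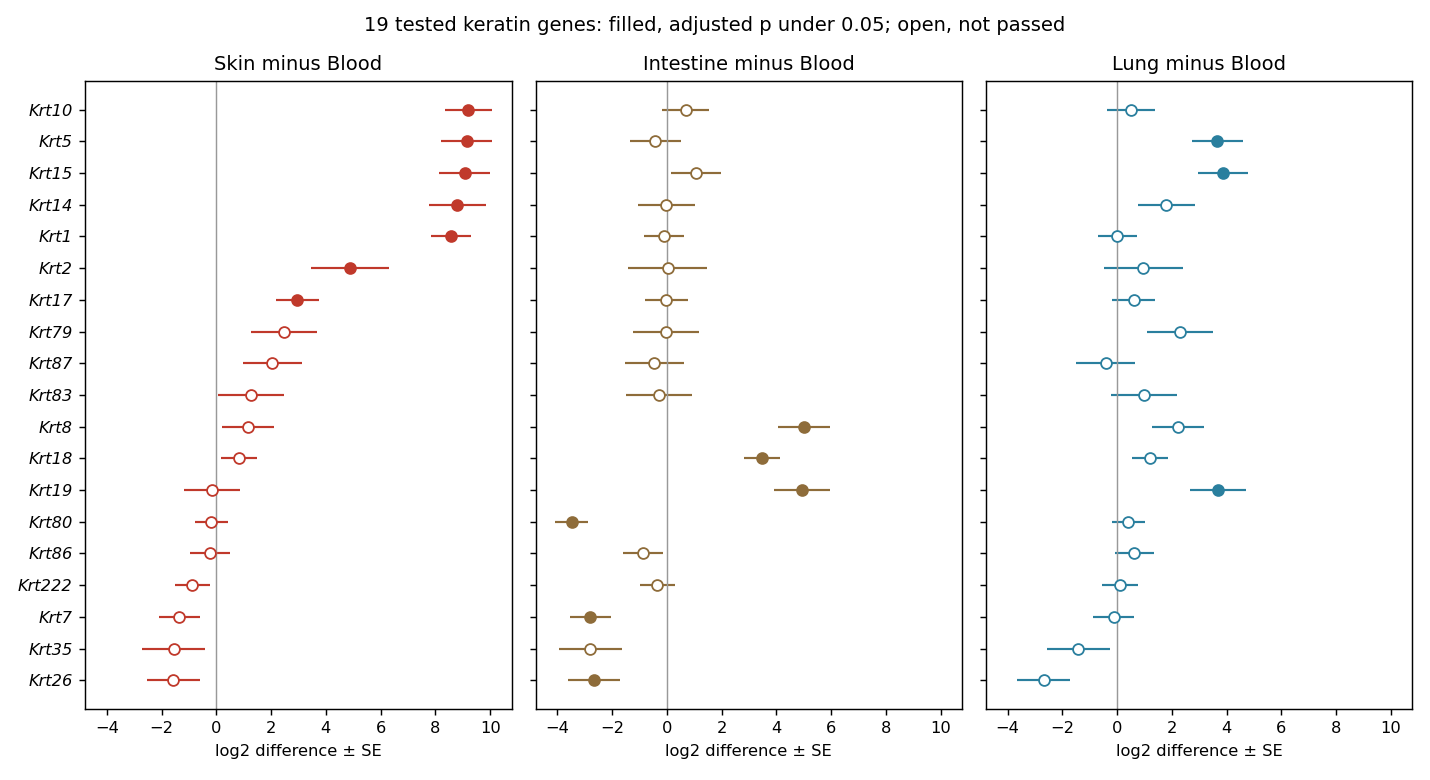
Log2 differences (points) ± SE (bars) of the 19 tested keratin genes in Skin, Intestine and Lung, each minus Blood, n = 3 libraries per tissue, with filled points for adjusted p under 0.05. In Skin 7 genes are filled on the right and 0 on the left, in Intestine 3 on each side (Krt8, Krt18 and Krt19 on the right, Krt80, Krt7 and Krt26 on the left) and in Lung 3 on the right.

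Skin and Intestine differed in both keratin classes when set against each other directly. Of the 19 tested members, 8 were higher in Skin than in Intestine and 3 were lower, beside 5.05% and 12.9% of all genes. The libraries did not overlap for 9 members higher in Skin, beside 6.38% of all genes, and for 2 lower in Skin (Krt18 and Krt19), beside 17.5%. Among the 9 was Krt86 with few counts, at 0.294, 0.433 and 0.998 scaled counts in Skin and at most 0.106 in Intestine. The difference was 9.55 ± 0.93 (adjusted p = 2.12e-06) for Krt5, 8.81 ± 1.04 (1.55e-05) for Krt14, 8.67 ± 0.72 (5.09e-07) for Krt1, 8.52 ± 0.87 (3.45e-06) for Krt10 and 8.00 ± 0.92 (1.43e-05) for Krt15. Krt2, Krt17 and Krt80 were the other members higher in Skin. Krt19 fell by 5.10 ± 1.02 (adjusted p = 0.00172), with 0 counts in the 3 Skin libraries, Krt8 fell by 3.87 ± 0.95 (0.0076) and Krt18 fell by 2.64 ± 0.66 (0.00815). Skin had 0, 0.808 and 12.1 scaled counts of Krt8 and 4.86, 0 and 0.372 of Krt18, so Skin replicate 3 overlapped the lowest Intestine library for Krt8.

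Single libraries set part of these sizes. Without Skin replicate 1 the difference between Skin and Intestine was 8.43 for Krt5, 7.30 for Krt14, 7.60 for Krt10, 1.54 for Krt17, 1.84 for Krt2, -3.36 for Krt18 and -3.11 for Krt8. Without Skin replicate 3 it was 10.24 for Krt5, 10.10 for Krt14, 9.45 for Krt10, 8.98 for Krt15, 3.87 for Krt17, 6.35 for Krt2 and -4.92 for Krt8, and without Skin replicate 2 that of Krt2 was 6.36. Without Intestine replicate 2 it was -6.49 for Krt19, -5.05 for Krt8 and 9.22 for Krt10, and without Intestine replicate 1 it was 9.03 for Krt15 and -4.40 for Krt19. Without Intestine replicate 3 it was -4.41 for Krt19 and -3.24 for Krt8. Krt2 was the member whose call was lost without a single library, any 1 of the 3 Intestine libraries. The median log2 difference was 2.49 over the members (3.30 with genes at 0 on one side at their bound) and -0.57 over all genes tested. With only the 6 libraries of both tissues in the fit the count was 5 instead of 11, the 5 being the epidermal keratins. With a weight per library the calls of Krt8, Krt17 and Krt18 were lost.

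Levels of different keratins can be compared once the scaled counts are divided by the exon length of each gene. Summed per kb of exon, the 5 epidermal keratins stood at 5826, 1586 and 391 in Skin, against 4.64, 1.65 and 0.183 in Intestine. The 4 simple epithelial keratins stood at 3.38, 0.413 and 6.43 in Skin, against 124, 13.6 and 116 in Intestine. In Skin the epidermal level exceeded the simple level in each library, by 60.7-fold at the least, and in Intestine the simple level exceeded the epidermal one in each library, by 8.24-fold at the least. The Skin mean of the epidermal level, 2601 per kb, was 988 per kb without Skin replicate 1.

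Lung held both classes, and neither was the higher in all 3 libraries. Per kb of exon the epidermal keratins stood at 26.7, 11.54 and 23.9 in Lung and the simple ones at 12.6, 25.2 and 6.54, so the epidermal level was the higher in replicates 1 and 3 and the lower in replicate 2. In Spleen the epidermal level was 1.52, 3.56 and 1.80 per kb and the simple level 0.0833, 0.0392 and 0. In BM the epidermal level was 0 in all 3 libraries and the simple level 0.238, 4.01 and 0.270. In Blood the epidermal level was 0, 0 and 0.995 and the simple level 0.345, 0.281 and 0.602.

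**Figure D4:**
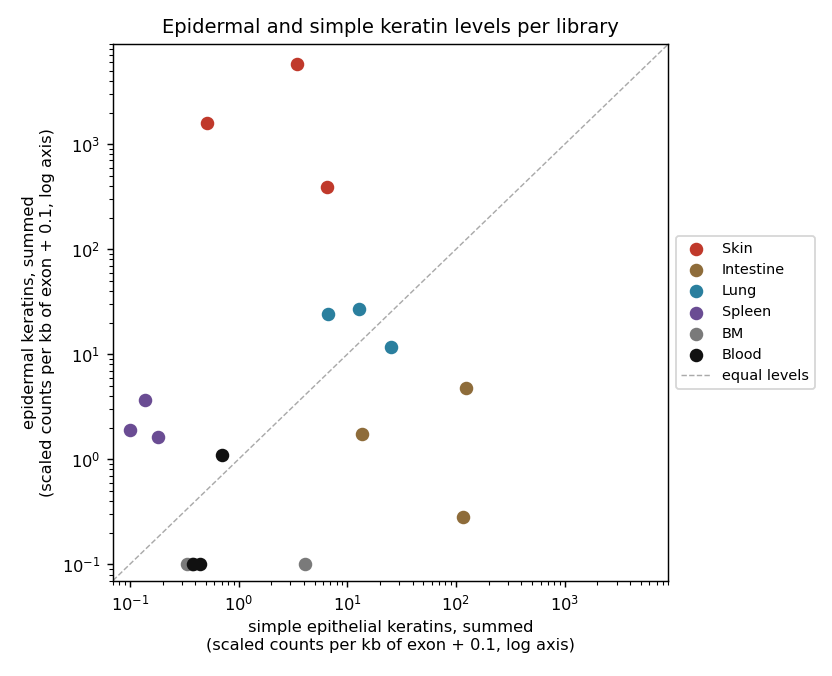
Summed level of the 5 epidermal keratins (vertical) against that of the 4 simple epithelial keratins (horizontal) in each of the 18 libraries, in scaled counts per kb of exon plus 0.1, on log axes; the dashed line marks equal levels. Skin lies far above the line, with 391 to 5826 per kb of epidermal keratin, Intestine below it, Lung close to it, and BM and Blood at the lower left, with at most 0.995 per kb of epidermal and 4.01 per kb of simple keratin.

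In Lung, keratins of both classes rose against Blood. Krt15 had 14.6, 14.6 and 13.5 scaled counts in Lung, against 0 in all 3 Blood libraries, with little spread between the Lung replicates. Krt5 had 27.4, 6.43 and 32.4 in Lung, against 0, 0 and 2.08 in Blood. Krt19 had 15.2, 38.6 and 5.39 in Lung, against 0.12, 0.109 and 0.417 in Blood. For all 3 genes every Lung library exceeded every Blood library. They rose in Lung by 3.86 ± 0.92 (adjusted p = 0.0119) for Krt15, 3.66 ± 0.93 (0.0183) for Krt5 and 3.67 ± 1.02 (0.0329) for Krt19, and Krt15 was at least 42.8-fold higher in Lung than a floor of 3 counts per Blood library.

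Krt8 with 7.32, 3.85 and 5.28 scaled counts in Lung and Krt18 with 1.05, 3.41 and 1.35 also lay above all Blood libraries but missed the threshold (adjusted p = 0.198 for Krt8 and 0.34 for Krt18). Krt14 had 10.2, 0.397 and 1.91 in Lung and 0 in all 3 Blood libraries (adjusted p = 0.387). Krt8 shares 26.98% of its 61-base stretches, the length of the reads, with other genes, mostly the processed pseudogene Krt8-ps, which was at 10.97, 2.81 and 0 in Lung, so the Lung values of Krt8 are uncertain. Krt13 and Krt4, the pair of wet stratified linings such as the oesophagus, were counted in Lung replicate 3. Krt13 had 11.2, 0 and 238 in Lung and Krt4 had 0, 0 and 167, while both were at 0 in all 3 Blood libraries, and neither could be tested.

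Of the 19 tested members 3 rose and 0 fell in Lung against Blood, beside 5.27% of all genes called higher and 1.02% called lower. Every Lung library exceeded every Blood library for 8 members (Krt2, Krt5, Krt8, Krt10, Krt14, Krt15, Krt18 and Krt19), beside 16.8% of all genes, and 1 member, Krt26, was lower in every one, beside 14.5%. For some of the 8 this rested on few counts. The lowest Lung values of Krt10, Krt2 and Krt14 were 0.196, 0.261 and 0.397 scaled counts, where 3 counts in Blood are worth 0.333 on average. At an unadjusted p under 0.05 the counts were 4 and 1. The median log2 difference was 0.63 over the members (0.98 with genes at 0 on one side at their bound) and 0.03 over all genes tested. The count rested on single libraries: it was 0 without Lung replicate 1, the shallowest library, and 1 without Blood replicate 1 or without Blood replicate 2. The call of Krt19 was lost without Lung replicate 1 or 2 or any 1 Blood library, that of Krt5 without Lung replicate 1 or 3 or Blood replicate 1 or 2, and that of Krt15 without Lung replicate 1, with adjusted p of up to 0.167, 0.096 and 0.082 over their alternatives. The difference of Krt5 was 4.35 without Lung replicate 2, and that of Krt19 was 3.02 without Lung replicate 2 and 4.33 without Lung replicate 3. Lung epithelium genes, 13 in the list, summed to 3591, 2302 and 787 scaled counts in Lung, against 127 to 181 in Blood, and 9 of 13 rose, led by the surfactant genes Sftpc with 2307, 1350.0 and 205 and Sftpa1 with 389, 399 and 81.7 in Lung. In Skin this list summed to 193, 859 and 876, and 1 of its 13 tested genes rose against Blood, beside 5.64% of all genes. Mesothelium genes, 5 in the list, summed to 99.6, 128 and 45.2 in Lung, against 1.98 to 7.39 in Blood, and 4 of 5 rose, led by Upk3b and Lrrn4. Endothelium genes summed to 2323, 1476 and 658 in Lung, with 6 of 6 higher than in Blood, and fibroblast genes to 1130, 679 and 158, with 5 of 6 higher. The 18 keratinocyte genes summed to 39.7, 23.5 and 89.0 in Lung and 0 of the 16 tested passed. The part of these cells in the Lung keratins was not tested.

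Spleen and BM gave no called keratin. Against Blood 0 of the 19 tested members passed in Spleen, beside 0.477% of all genes called higher and 0.13% called lower (limma), and 0 in BM, beside 0.105% and 0.099%. At an unadjusted p under 0.05 the count was 1 higher and 0 lower in each, and the gene was Krt86 both times. Low values of epidermal keratins recurred in Spleen. Krt15 had 1.31, 1.75 and 1.42 scaled counts in Spleen, Krt14 had 0.773, 1.67 and 0.946, and both were at 0 in all 3 BM and all 3 Blood libraries. With Krt10, Krt2 and Krt86 these were the 5 members higher in every Spleen library than in every Blood library, beside 13.6% of all genes, and Krt7, Krt8 and Krt26 were lower in every one, beside 11.1%. For Krt10 and Krt8 this rested on few counts. Krt10 had 0.0773 scaled counts in Spleen replicate 1, which is 1 count, and 0 in Blood. Krt8 had 0 in Spleen, against 0.223, 0.435 and 0.312 in Blood. Krt15 did not pass in Spleen (adjusted p = 0.985). In BM 1 member, Krt86, was higher in every library than in every Blood library, beside 9.38% of all genes, and Krt26 and Krt35 were lower in every one, beside 9.48%.

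Krt86 was the keratin with its highest level in BM. It encodes a type II hair keratin and had 7.45, 22.4 and 15.7 scaled counts in BM, 4.1, 10.6 and 6.15 in Spleen, at most 3.66 in Lung, at most 0.998 in Skin and at most 0.106 in Intestine, against 0, 1.34 and 1.93 in Blood. Every BM library lay above all libraries of Skin, Intestine, Lung and Blood. The F test called it (adjusted p = 0.00206), whereas BM minus Blood did not pass at 2.93 ± 0.72 (adjusted p = 0.114), nor did Spleen minus Blood at 1.94 ± 0.72 (0.386). It was called in BM with log2(value + 5), with a weight per library and without the Skin libraries, and in Spleen with a weight per library. Of the 61-base stretches of Krt86, 38.6% also occur in other hair keratin genes, so reads could be assigned between them. Those neighbours, Krt81 and Krt87, had 0 and at most 0.114 in BM, and Krt83 had 4.96, 0 and 1.71.

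Krt80, Krt7 and Krt26 were the keratins with counts in all 18 libraries. Krt80 had 47.5, 58.0 and 24.9 scaled counts in Skin, 45.5, 64.2 and 83.5 in Lung, 47.4, 45.9 and 46.5 in Spleen and 31.6, 55.7 and 58.1 in BM, against 43.2 to 50.4 in Blood. Outside Intestine its lowest library had 24.9 and its highest 83.5. Krt7 had 14.6, 3.4 and 42.99 in Skin, 35.5, 40.1 and 26.6 in Lung, 22.7, 29.8 and 28.5 in Spleen and 22.8, 10.2 and 37.5 in BM. Its Skin libraries, 3.4 to 42.99, overlapped those of each other tissue. Krt26 had 17.2, 0.438 and 26.3 in Skin, 0.786, 1.89 and 13.4 in Lung, 23.0, 14.4 and 18.7 in Spleen and 9.16, 9.46 and 11.6 in BM, and its Blood libraries, at 23.5 to 30.1, did not overlap those of BM, Spleen, Lung or Intestine.

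The F test called Krt80 (adjusted p = 0.000302) and Krt7 (0.0407), and Krt26 did not pass it (0.122). None of the 3 passed in Skin, Lung, Spleen or BM against Blood, although Krt26 was called lower in Lung with a weight per library, with only the libraries compared and without the Skin libraries. Krt80 was higher in Skin than in Intestine by 3.30 ± 0.61 (adjusted p = 0.000878), 2.71 without Intestine replicate 1. The order of its tissue means was Lung 64.4, BM 48.5, Blood 46.8, Spleen 46.6, Skin 43.5 and Intestine 3.92, and neighbours in that order other than Skin and Intestine lay within the spread of their libraries. Strand use is not stated in the sources used here, and 2.38% of the 61-base stretches of Krt80 and 0.479% of those of Krt7 occur on the opposite strand of other genes. Reads from those stretches cannot be told apart from antisense ones.

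**Figure D5:**
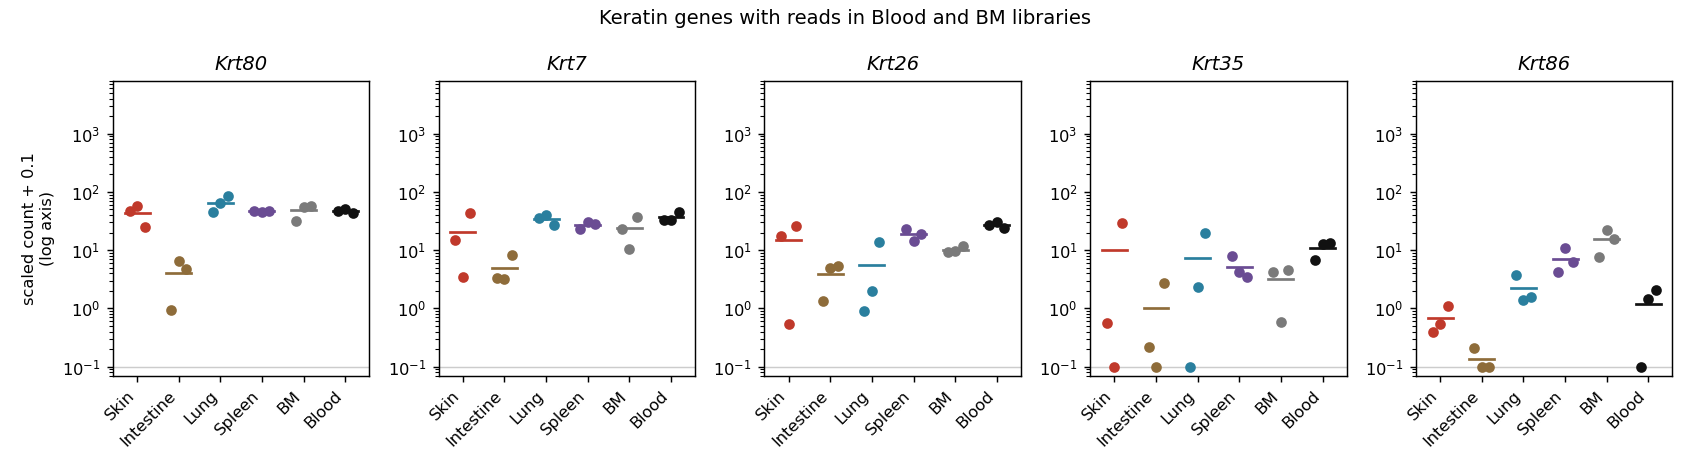
Scaled counts plus 0.1 on a log axis for Krt80, Krt7, Krt26, Krt35 and Krt86 in each library (points) with the tissue mean (bar), n = 3 libraries per tissue. Krt80 lies between 24.9 and 83.5 in the 15 libraries outside Intestine and between 0.851 and 6.31 in Intestine, and Krt86 is highest in BM.

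Many genes of proteins that anchor keratin filaments also rose in Skin. Of 20 genes of desmosomes and hemidesmosomes, the junctions to which keratins attach, all were tested and 17 passed the F test, beside 31.9% of all genes. In Skin against Blood 16 rose and 0 fell, beside 5.64% of all genes called higher, with a median difference of 3.71 against -0.26 over all genes. In Intestine 5 rose and 0 fell, beside 15.8% called higher, in Lung 2 rose and 0 fell, beside 5.27%, and in Spleen and BM 0 passed. The smallest F-test p-values were those of Dsg1a, Evpl, Dsp and Col17a1. Dsp, desmoplakin, which ties keratins to the desmosome, had 1967, 1332 and 269.7 scaled counts in Skin, 54.8, 0.083 and 43.7 in Intestine and 65.1, 30.1 and 70.7 in Lung, against 0, 0 and 3.12 in Blood. It rose by 9.06 ± 1.17 in Skin (adjusted p = 3.68e-05) and by 4.98 ± 1.17 in Lung (0.0109). Evpl, envoplakin of the cornified envelope, had 175, 151 and 25.7 in Skin, against 0.12, 0 and 0 in Blood. Some of these genes, Dsg1a and Col17a1 among them, are also in the keratinocyte list.

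Other intermediate filament genes followed another pattern. Of the 16 listed 12 were tested and 9 passed the F test, beside 31.9% of all genes. Against Blood 6 rose and 1 fell in Intestine, beside 15.8% of all genes called higher and 10.1% called lower, and 4 rose in Lung, beside 5.27%. In Spleen 1 rose, beside 0.477% of all genes, and in Skin 1 rose, beside 5.64%, so that the Skin count lies near its background. Vim, which encodes the vimentin of leukocytes and mesenchymal cells, had 727, 885 and 600.3 scaled counts in Skin, 805, 1409 and 1128 in Intestine, 685, 568 and 412 in Lung, 281, 464 and 463 in Spleen, 465, 486 and 518 in BM and 1112, 1264 and 628 in Blood. It was high in every library, never under 281, and passed the F test (adjusted p = 0.0156). Lmna, the nuclear lamina gene, was the one that rose in Skin, with 774, 89.1 and 78.5 in Skin, against 12.0, 6.34 and 5.93 in Blood (4.34 ± 0.80, adjusted p = 0.00116). Des, Nes and Synm, genes of muscle and vessel-wall filaments, rose in Intestine and Lung and did not pass in Skin, and Des had 46.4, 419 and 111 in Intestine, against 2.03, 0.109 and 1.98 in Blood.

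The keratins most alike in sequence are the least certain as single genes. Krt6a shared 54.6% and Krt6b 45.8% of their 61-base stretches with other genes, Krt16 32.3%, Krt31 24.1%, Krt33a 13.9%, Krt5 10.3% and Krt14 9.26%. Krt14 shared its stretches with Krt16 and Krt17. Krt1, Krt15, Krt18, Krt19 and Krt20 shared none, so no 61-base read within their transcripts matches another annotated gene exactly. Matches with mismatches were not counted for any gene.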

How the data were processed

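RNA of Ly6G+ neutrophils from 6 tissues was sequenced in 18 libraries, 3 per tissue. Per the labels' protocols, the kit was Ovation Single Cell and the reads were single ends of 61 bases. The submitters' processing notes name CASAVA, mm10, RSEM 1.3.1 and limma. The authors deposited 1 table of normalised signal, named TPM. Its values equal (estimated count + 0.5) / (effective library size + 1) x 1000000 and carry no gene length, so they were treated as scaled counts, and between genes as levels per kb of annotated exon. A count test was not run, since only 50% to 67% of recovered counts per library were whole within 0.01.

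Gene names, types and positions came from GENCODE vM21, and promoter sequences from RefSeq (GRCm38.p6). The 16157 of 32328 genes that reached 1 in 3 or more libraries were tested with limma 3.58.1 (R 4.3.3) on log2(value + 1), with 1 mean per tissue, a spread shared over all tissues (12 residual degrees of freedom), a mean-dependent prior and Benjamini-Hochberg adjustment over all genes tested. Tables and figures used Python 3.11.15 with pandas 2.3.3, numpy 2.4.6 and matplotlib 3.10.9. The procedure was first tested on simulated data. The members, gene lists and tests were chosen with earlier results of these data known. Values per library are given for the 9 keratins of both classes and for members that passed or averaged at least 20 scaled counts in a tissue, with up to 4 partner genes per list by F-test p and up to 2 markers per cell type by mean level. Alternatives were other pseudocounts, filters and scalings, a weight per library, fits of fewer libraries, a replicate block and each library left out. The main fit did not pair libraries by replicate number, as 1 of 45 same-numbered pairs had a correlation of deviations over 0.1. With 3 libraries per tissue this cannot exclude a shared mouse or day. The sample labels also carry letters, A, B and C but D for Blood replicate 3, which were not used.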

Additional observations from a re-analysis of the deposited data

Results flagged for a closer look

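For 11 keratins the effect against Blood differed between Skin and Intestine by the test of that difference, which equals Skin minus Intestine because both share the Blood libraries (limma, adjusted p under 0.05). On the log2 scale the difference of the effects was 9.55 for Krt5, 8.81 for Krt14, 8.67 for Krt1, 8.52 for Krt10, 8.00 for Krt15, 4.85 for Krt2, 3.30 for Krt80 and 2.98 for Krt17, all higher in Skin. It was -2.64 for Krt18, -3.87 for Krt8 and -5.10 for Krt19, lower in Skin. For Krt80 the difference came with a fall in Intestine against Blood (-3.48) and -0.18 in Skin against Blood, which did not pass. No explanation of these differences was tested.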

How the results depend on the processing

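Of the 34 called keratin differences 20 were called under every alternative run, and over 905 alternatives 850 kept the call, 55 lost it and 0 changed direction. The count of called keratins in Lung against Blood (3) was 0 with log2(value + 5), 7 with a weight per library, 5 with only the libraries compared and 5 without the Skin libraries (each with 1 fall, Krt26, among them), and 0 to 4 when 1 library was left out. In BM the count (0) was 1 with log2(value + 5), with a weight per library and without the Skin libraries, and in Spleen (0) it was 1 with a weight per library. For Skin against Intestine (11) it was 5 with only the libraries compared, and for Skin against the mean of the other 5 tissues (7) it was 11 with no filter. The cause was not tested. With 1 library left out, the counts ran over 11 to 13 for the F test, 5 to 7 for Intestine, 6 to 8 for Skin, 10 to 12 for Skin against Intestine and 7 to 8 for Skin against the other 5. With the replicate number as a block the counts were 12 for the F test, 7 in Skin, 7 in Intestine, 3 in Lung, 11 for Skin against Intestine, 8 for Skin against the other 5 and 0 in Spleen and BM. The epidermal level per kb in Skin ran over 988 to 3706 and the simple level in Intestine over 64.8 to 120 with 1 library left out. Quantile scaling moved the median of all genes by 0.59 and the table total by -0.45 in Skin against Intestine, and no called keratin changed direction. The fit without the Skin libraries and the keratin levels rescaled to the table total were chosen after seeing the data. A count of 0 in Skin replicate 2 allows up to 1.298 scaled counts (3 counts).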

Other observations

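Markers of one tissue's epithelium were also counted in libraries of others. Fcgbp, in the colon epithelium list, had 634, 367 and 19.7 scaled counts in Skin, 16.3, 143 and 163 in Intestine and 0.359, 0.225 and 0.734 in Blood, whereas Muc2 was at 0 in all 3 Skin libraries. Sftpc, the surfactant gene of alveolar type II cells, had 3.53, 63.6 and 183 in Skin and 0, 143 and 0.0768 in Intestine, against 9.69, 0.109 and 48.0 in Blood. Single keratin values of the same kind were the 6.97 scaled counts of Krt19 in BM replicate 2, where the other BM libraries had 0.209 and 0.193, and the 6.81 of Krt9, the keratin of palm and sole, in Intestine replicate 1. These genes were chosen after their values were seen, and the values are given with no explanation.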
